A study of Mus musculus with 8 samples.

Results

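Chst3, Penk, Kcnc1, Kit, Endod1, Bcat1 and Swap70 were 7 of the 39056 genes in the deposited count table, and they were chosen by measured counts, because their transcripts were near silent or much lower in one T cell clone, ANT, than in another, SAS. The choice used the SAS against ANT contrast itself, with no numeric limit, so the difference between the clones is described for these genes and not tested. All 7 genes were found in the table and all 7 passed the low-count filter, which for the genes near silent in ANT happened through the SAS libraries.

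RNA was sequenced from CD4+ T cells sorted by flow cytometry from spleen and lymph nodes that had been pooled, in 8 libraries. The hosts were C57BL/6J mice that had been given bone marrow progenitors of the genotype CD4-Cre TCRβtg Tcra-/-. These carry a T cell receptor (TCR) beta transgene and a Cre recombinase driven by Cd4 regulatory sequences, and lack a functional endogenous TCR alpha gene. A retrovirus supplied a TCR alpha chain, ANT in 4 libraries (ANT 1, 3, 4 and 5) and SAS in the other 4 (SAS 1, 2, 3 and 6). Both clones thus share the Cre, the beta chain and the Tcra-/- genotype, and each cell's receptor was made with an introduced chain. By its title, the series is about CD4+ clones that recognise self and resemble T follicular helper cells in unchallenged animals. Neither the age of the mice nor whether each library came from its own animals is given in the labels, so a p-value here measures only how these samples differ, which may be technical in part.

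The 7 genes belong to no single pathway. Kit encodes the receptor tyrosine kinase for stem cell factor, which signals through adaptors, phosphoinositide 3-kinase, Src kinases and STAT factors and is known for hematopoietic progenitors, mast cells, melanocytes and germ cells. Penk encodes proenkephalin, a secreted precursor that prohormone convertases and carboxypeptidases cut into opioid peptides. Kcnc1 encodes a Shaw-type voltage-gated potassium channel subunit best known from fast-spiking neurons. Chst3 encodes a Golgi sulfotransferase that places sulfate on chondroitin chains, Bcat1 the cytosolic branched-chain aminotransferase that moves the amino group of leucine, isoleucine and valine, and Endod1 a protein with an endonuclease domain. Swap70 encodes a phosphoinositide-binding protein that acts with Rac on the actin cytoskeleton and was first studied in B cells. Penk and Swap70 are also known as transcripts of regulatory T cells, so the description of these genes as lying outside known T cell programs does not hold for each of them.

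The enkephalin precursor is shown by its coding units, because its transcript repeats one short peptide code. In the GENCODE M21 transcript Penk-201 (1449 bases, with an open reading frame of 268 codons), 7 units were found, 6 ending in a methionine codon and 1 in a leucine codon. Capitals mark the 15 bases that encode an enkephalin and the lower-case letters the 6 bases on each side, printed 5′ to 3′ on the transcript strand.
Penk unit 1: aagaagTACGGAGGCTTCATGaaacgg
Penk unit 2: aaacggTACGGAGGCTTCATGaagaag
Penk unit 3: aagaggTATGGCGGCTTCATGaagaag
Penk unit 4: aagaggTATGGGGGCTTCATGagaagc
Penk unit 5: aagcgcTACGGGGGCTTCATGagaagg
Penk unit 6: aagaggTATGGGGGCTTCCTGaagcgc
Penk unit 7: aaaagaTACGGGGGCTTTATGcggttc
Codons for a pair of basic residues, where precursor proteins of this kind are cut, flanked 5 of the 7 units on both sides, and units 4 and 7 had such a pair on the upstream side only. Among the 7 units there were 6 distinct 15-base sequences.

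The upstream sequences of Bcat1 and Chst3 are shown because their transcripts had the smallest spread between SAS libraries (Bcat1) and the largest difference between clones (Chst3) of the 7 genes. Both are the 250 bases before a RefSeq start in GRCm38.p6, on the minus strand of chr6:145076158-145076407 for Bcat1 and of chr10:60219261-60219510 for Chst3, printed 5′ to 3′ in the direction of transcription. Capitals mark motif matches.
Bcat1: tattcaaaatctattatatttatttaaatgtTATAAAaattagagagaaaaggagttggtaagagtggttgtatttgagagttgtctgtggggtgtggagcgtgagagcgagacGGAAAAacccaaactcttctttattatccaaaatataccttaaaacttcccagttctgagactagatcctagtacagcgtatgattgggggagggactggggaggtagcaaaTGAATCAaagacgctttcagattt
Chst3: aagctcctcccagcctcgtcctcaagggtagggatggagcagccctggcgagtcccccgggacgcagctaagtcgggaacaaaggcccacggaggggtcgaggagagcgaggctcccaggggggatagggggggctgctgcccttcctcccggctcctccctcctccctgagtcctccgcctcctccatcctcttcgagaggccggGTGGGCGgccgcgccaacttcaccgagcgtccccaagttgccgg
In the Bcat1 window the capitals are, in order, a TATAAA at -219, the NFAT-type motif GGAAAA at -136 and the AP-1 motif TGANTCA, here read as TGAATCA, at -24 from the RefSeq start. In the Chst3 window they are the Egr motif GTGGGCG at -44. The matches did not overlap one another. Both strands were searched, and of 32851 such RefSeq windows of 250 bases, 12.4% held TATAAA, 20.4% GGAAAA, 6.75% TGANTCA and 7.02% GTGGGCG.

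Windows were found for 5 of the 7 genes, Kit, Bcat1, Kcnc1, Swap70 and Chst3, and none of these held the CRE motif ACGTCA (6.47% of all windows), the enkephalin CRE-like motif TGCGTCA (1.75%), the NBRE AAGGTCA (4.08%) or the E-box CACGTG (6.02%). Penk and Endod1 were not matched to a window. The windows differed in base composition. The Bcat1 window shown had 37.6% G and C and 5 CpG dinucleotides, against medians of 52.4% and 6 over all windows, while Chst3 had 69.6% and 18, Kcnc1 74.4% and 30, Kit 70.8% and 17, and Swap70 59.6% and 9. A second RefSeq start of Bcat1, 27372 bases downstream of the start in GENCODE, had 56.4% and 9. These letters describe the windows and not binding.

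Library totals were 27600959 to 31810799 counts. Levels are given in CPM, counts per 1000000 after the library size has been scaled by its TMM factor, and a count of 0 in 1 library allows a level of up to 0.0914 to 0.11 CPM (3 counts, counting error only). Of 12619 genes tested with edgeR's quasi-likelihood test, 4725 (37.4%) differed between the clones at an adjusted p under 0.05, with 2497 (19.8%) on the SAS side and 2228 (17.7%) on the ANT side. Scaled by library size only, 3064 of 4730 called genes (64.8%, against 52.8% with TMM) were higher in SAS. No pair of libraries of a clone agreed within sampling noise. ANT 1 and 3 differed from each other by a chi-square per degree of freedom of 11.64 and ANT 4 and 5 by 24.02, whereas pairs across these 2 sets differed by 112.7 to 154.4, so the ANT libraries fell into pairs.

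The labelled cell type was present in the data: the summed level of 10 CD4 T cell markers ran from 8160 to 11000 CPM in ANT and from 7320 to 9820 CPM in SAS, and Cd4 itself was at 936 ± 59.8 (SD, n = 4) and 907 ± 66.6 CPM. SAS 2 stood apart in transcripts known from neurons. The sum of 8 neuronal markers was 148 CPM in SAS 2 and 26.0 to 28.9 CPM in the other SAS libraries. In ANT it was 1.29 to 4.17 CPM. In SAS 1, 3 and 6 most of the sum was Map2, at 23.2, 22.1 and 19.9 CPM, against 0.324 to 1.1 CPM in ANT. SAS 2 was the highest SAS library for all 8 markers. All 5 of these markers that were tested were called higher in SAS, against 19.8% of all tested genes. Snap25 and Syt1, however, were not called without SAS 2 (edgeR adjusted p 0.0594 and 0.0672). Nor was Snap25 called without any 1 of the ANT libraries (edgeR adjusted p 0.0574 to 0.0944), or Syt1 without ANT 1, 3 or 4 (0.0583 to 0.0948). Snap25, a synaptic vesicle fusion protein, was at 29.6 CPM in SAS 2 and at 1.16 to 1.90 CPM in the other SAS libraries. Because Penk and Kcnc1 are also known from neurons, their values are given below with and without SAS 2.

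**Figure D1:**
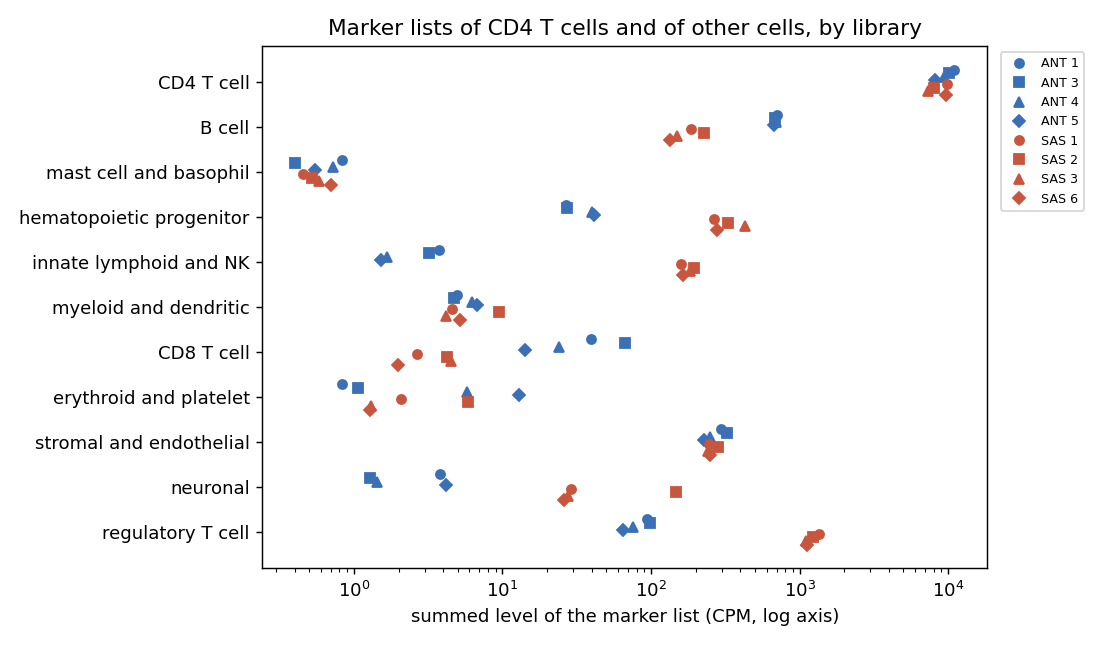
Summed level of each marker list in the 8 libraries, in CPM on a log axis; each point is a library, blue for ANT and red for SAS. The neuronal list sits at 148 CPM in SAS 2 and at 26.0 to 28.9 CPM in the other SAS libraries, and the mast cell and basophil list stays at or below 0.828 CPM in all 8.

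**Figure D2:**
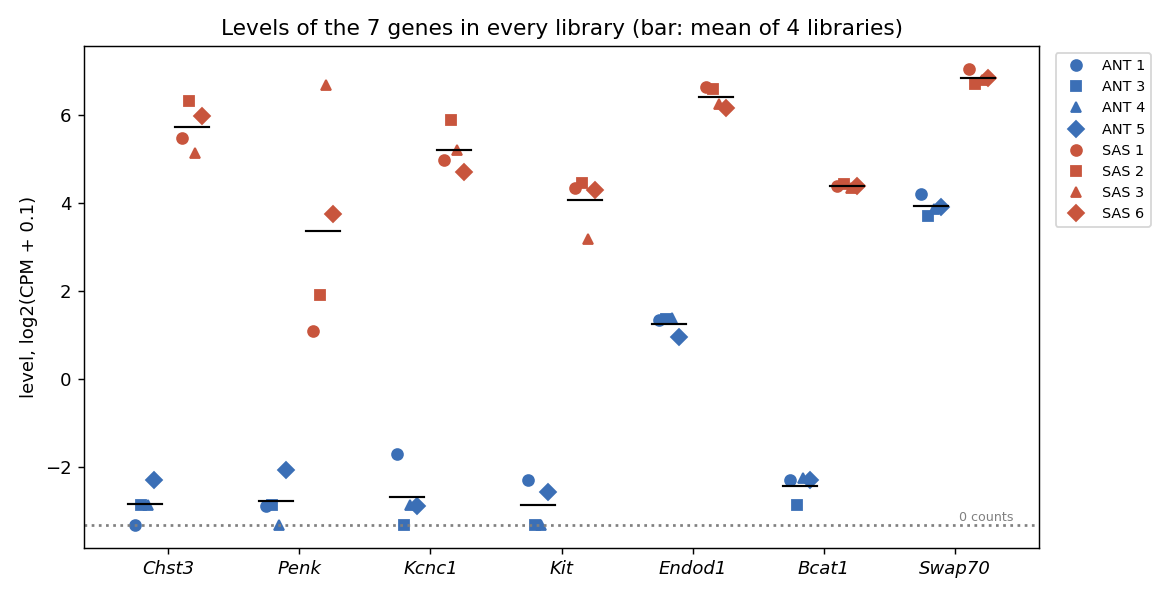
Level of each of the 7 genes in the 8 libraries as log2(CPM + 0.1); points are libraries, the bar is the mean of 4 libraries, and the dotted line is a count of 0. Every SAS point lies above every ANT point of its gene, Penk is spread from 2.01 to 102 CPM within SAS, and Swap70 and Endod1 are the genes with ANT levels well off the dotted line.

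Kit, the stem cell factor receptor (ENSMUSG00000005672.12, mm10 chr5:75574916-75656722, plus strand), had 3, 0, 0 and 2 counts in ANT 1, 3, 4 and 5, or 0.103, 0, 0 and 0.0689 CPM. In SAS 1, 2, 3 and 6 it had 658, 619, 257 and 606 counts, or 20, 21.7, 8.87 and 19.5 CPM. The clones did not overlap, 3 SAS libraries lay close together, and SAS 3 was lower than these. The means were 0.0431 ± 0.0517 and 17.5 ± 5.84 CPM, and 20.4 ± 1.16 CPM over the 3 SAS libraries other than SAS 3. Over pooled counts the SAS to ANT ratio was 398 with a 95% exact binomial interval of 170 to 1230, which covers counting error only, and the difference of mean log2 CPM (prior count 2) was 7.34 ± 0.46 (SE).

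Kit is a marker of several cell types that a sort can let through, and the levels of their other markers are given here; the part of such cells in the level of Kit was not tested. The mast cell and basophil list of 10 genes summed to 0.404 to 0.828 CPM in ANT and 0.457 to 0.707 CPM in SAS, with Fcer1a and Tpsb2 at 0 in every library and the mast cell protease Cpa3 at 5 counts in ANT and 10 in SAS. Of the progenitor list, Mecom and Myct1 were at 0 and Cd34 had 3 and 14 counts, although the list's sum was 26.9 to 41.2 CPM in ANT and 267 to 426 CPM in SAS, since Sox4, the 1 progenitor marker that was tested, was at 33.3 ± 7.84 and 323 ± 72.9 CPM. In the list for innate lymphoid and natural killer (NK) cells, Ncr1 and Klre1 were at 0. Of its 4 tested markers, 3 were called higher in SAS, among them Kit itself, against 19.8% of all tested genes. The sum of 158 to 194 CPM in SAS, against 1.52 to 3.72 CPM in ANT, came mostly from the T-box factor Eomes (155 ± 18.1 CPM) and from Kit. In bulk RNA, fewer cells of a type and less RNA per cell cannot be told apart.

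Of 33 other genes of the Kit pathway, 23 were tested, 9 were called higher in SAS and 3 higher in ANT by edgeR's quasi-likelihood test, 52.2% against 37.4% of all genes, with a median log2 fold change of 0.20 against -0.003. The genes with the smallest p were Stat5a (83.2 ± 4.14 to 174 ± 8.02 CPM, log2 fold change 1.07, SE 0.09, adjusted p 7.6e-06), a transcription factor that acts below the receptor, and Jak2 (1.31, SE 0.11, adjusted p 8.69e-06), a cytokine receptor kinase. Sh2b3, an adaptor known to restrain Kit signalling, rose from 47.6 ± 7.49 to 129 ± 12.6 CPM (1.44, SE 0.13, adjusted p 1.73e-05), and the Src kinase Lyn rose from 0.237 ± 0.110 to 3.02 ± 1.35 CPM (3.64, SE 0.45, adjusted p 0.000142). Higher in ANT were the kinase subunits Pik3cd (-0.50, adjusted p 0.0137) and Pik3r1 (-0.47, adjusted p 0.0278), and the transcription factor Mitf (-1.11, adjusted p 0.0304). The calls of the last 2 were lost when some single libraries were left out. Pik3r1 was not called without ANT 4, ANT 5 or any 1 of the SAS libraries (adjusted p 0.0521 to 0.0669), at log2 fold changes of -0.48 to -0.36. Mitf was not called without ANT 4, ANT 5, SAS 1, SAS 3 or SAS 6 (0.0528 to 0.0787), at -1.19 to -0.89.

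The Kit ligand gene, Kitl, had 19 counts in ANT and 100 in SAS and was not called by edgeR (log2 fold change 2.29, SE 0.91, adjusted p 0.0715). Its level was 2.38 CPM in SAS 2 and 0.173 to 0.45 CPM in the other SAS libraries, so it was high in the same library as the neuronal markers. Without SAS 2 its log2 fold change fell to 0.99 and it was not called. Kitl was called by edgeR without ANT 3 (adjusted p 0.0294) and without SAS 3 (0.0471), and by DESeq2 with all libraries (0.0365). Gata2 and Tal1, transcription factors that accompany Kit in progenitors and mast cells, had 1 and 0 counts in ANT and 0 and 2 in SAS.

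Penk, the enkephalin precursor (ENSMUSG00000045573.9, chr4:4133531-4138819, minus strand), had 1, 1, 0 and 4 counts in the ANT libraries, or 0.0345, 0.0368, 0 and 0.138 CPM. In SAS 1, 2, 3 and 6 it had 66, 104, 2967 and 412 counts, or 2.01, 3.65, 102 and 13.2 CPM. All SAS libraries were above all ANT libraries, but SAS 3 held most of the SAS counts, and the highest SAS level was 50.9 times the lowest. The mean was 30.3 ± 48.3 CPM in SAS and 0.0523 ± 0.0595 CPM in ANT, a pooled ratio of 550.1 (252 to 1500). Without SAS 3 the SAS mean fell to 6.30 ± 6.06 CPM, the ratio of means from 580 to 120 and the difference of mean log2 CPM from 6.51 ± 1.29 to 5.40.

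Between the clones the sum of the neuronal markers, given above, moved with Penk. In the SAS libraries other than SAS 2 that sum was mostly Map2. Within SAS the neuronal markers peaked in SAS 2, where Penk was at 3.65 CPM. Their part in the level of Penk was not tested. Without SAS 2 the SAS mean of Penk was 39.2 ± 55.0 CPM and the ratio of means 750. Regulatory T cell markers were higher in SAS than in ANT, with a summed level of 1110 to 1360 against 65.3 to 99.1 CPM. Of 10 markers 8 were called higher in SAS and none higher in ANT, against 19.8% and 17.7% of all tested genes. Ikzf2, the transcription factor Helios, made up most of that sum (976 ± 93.0 CPM), while Foxp3, which defines the lineage, rose from 0.585 ± 0.106 to 1.45 ± 0.716 CPM (edgeR log2 fold change 1.31, adjusted p 0.0165). In SAS 1, 2, 3 and 6 the sum of the regulatory T cell markers was 1360, 1230, 1110 and 1120 CPM. Foxp3 was at 2.5, 1.12, 1.28 and 0.899 CPM in these libraries, and Penk was lowest in SAS 1 and highest in SAS 3. The part of regulatory T cells in the level of Penk was not tested.

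Among 23 other opioid and prohormone-processing genes, 11 were tested, 4 were called higher in SAS and 2 higher in ANT (54.5% against the background of 37.4%). Pcsk1, a convertase that cuts hormone precursors, went the other way from Penk: it was at 17.8, 37.6, 18.1 and 9.31 CPM in ANT 1, 3, 4 and 5 and at 0.244, 0.456, 0.069 and 0.0642 CPM in the SAS libraries. The log2 fold change by edgeR was -6.62 (SE 0.60, adjusted p 1.52e-05), with no overlap between clones. Ctsl, a lysosomal protease that can also process proenkephalin, was lower in SAS as well (-0.92, adjusted p 0.00145). Higher in SAS were Dpp3, an enkephalin-degrading peptidase (66.7 ± 6.03 to 93.8 ± 9.65 CPM, adjusted p 0.00522), the carboxypeptidase Cpd (0.193 ± 0.101 to 1.31 ± 1.03 CPM, adjusted p 0.00589), the convertase Furin and the carboxypeptidase Cpe.

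The last 2 calls were lost when some single libraries were left out. Cpe was at 22.6 CPM in SAS 2 and at 1.17 to 1.22 CPM in the other SAS libraries, the same library that was high in neuronal markers. Its log2 fold change of 3.80 (adjusted p 0.0254) fell to 1.37 (adjusted p 0.0936) without SAS 2, and the call was also lost without any 1 of the ANT libraries (adjusted p 0.0632 to 0.0977). Furin (0.54, adjusted p 0.0409) was not called without ANT 1, ANT 3 or any 1 of the SAS libraries (0.0533 to 0.0972). Its log2 fold change in these fits was 0.42 to 0.59. The enkephalin receptors were at the edge of detection and were not tested. Oprm1 had 13 counts in ANT and 58 in SAS, at 0.457, 0.561, 0.621 and 0.289 CPM in the SAS libraries, and Oprd1 had 0 counts in ANT and 9 in SAS, of which SAS 2 held most.

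Kcnc1, the voltage-gated channel subunit (ENSMUSG00000058975.7, chr7:46396497-46438704, plus strand), had 6, 0, 1 and 1 counts in the ANT libraries, or 0.207, 0, 0.036 and 0.0345 CPM. In SAS 1, 2, 3 and 6 it had 1025, 1681, 1070 and 810 counts, or 31.2, 58.9, 36.9 and 26.0 CPM. No ANT library came near any SAS library, most ANT counts were in ANT 1, and SAS 2 was the highest. The means were 0.0694 ± 0.0932 and 38.3 ± 14.5 CPM, the pooled ratio was 533.1 (270 to 1240) and the difference of mean log2 CPM 8.26 ± 0.50. Without SAS 2, the library high in neuronal markers, the SAS mean was 31.4 ± 5.46 CPM and the ratio of means 453. In SAS 1, 3 and 6 the neuronal markers summed to 26.0 to 28.9 CPM, mostly Map2, against 1.29 to 4.17 CPM in ANT. Their part in the level of Kcnc1 was not tested.

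Of the other Shaw-type subunits, Kcnc2 and Kcnc4 were barely detected. Kcnc2 had 4 counts in ANT and 79 in SAS, and it was at 2.73 CPM in SAS 2 and at most 0.0305 CPM in the other SAS libraries. Kcnc4 had 1 and 38 counts. Both peaked in SAS 2, at 2.73 and 0.947 CPM.

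Of 91 other potassium channel genes, 15 had no count in any library and 18 were tested. By edgeR's test 8 were called higher in SAS and 3 higher in ANT, 61.1% of those tested against 37.4% of all genes, with a median log2 fold change of 0.71. Kcnq5, an M-type channel subunit, rose from 1.08 ± 0.206 to 14.1 ± 0.788 CPM (3.70, SE 0.17, adjusted p 1.85e-07), and Kcnh4, of the ether-a-go-go family, rose from 5 to 486 counts (6.37, SE 0.46, adjusted p 3.91e-06). Kcnk5, a background channel, rose from 0.115 ± 0.0427 to 1.27 ± 0.194 CPM (adjusted p 2.68e-05), and Kcnn1, a calcium-gated channel, had 0 counts in ANT and 72 in SAS, at least 22.3-fold higher with 3 counts over the 4 ANT libraries as the limit (adjusted p 0.000124). These 4 genes had little spread between SAS libraries, with Kcnh4 for instance between 3.52 and 4.59 CPM.

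The potassium channels best known from T cells differed less between the clones. Kcna3 rose from 39.3 ± 6.44 to 67.6 ± 8.0 CPM (0.78, SE 0.14, adjusted p 0.00145), and Kcnn4 was at 236 ± 33.1 and 282 ± 25.3 CPM (0.26, adjusted p 0.121, not called). Kcna2 went the other way from Kcnc1, from 46.1 ± 4.89 to 8.58 ± 3.41 CPM (-2.43, SE 0.24, adjusted p 2.82e-05), as did the inward rectifier Kcnj16 (3.96 ± 0.571 to 0.191 ± 0.0907 CPM, adjusted p 5.11e-06) and Kcnh3 (6.18 ± 1.15 to 1.54 ± 0.765 CPM, adjusted p 0.000699). Kcnn4 was called higher in SAS when libraries were scaled by size only (0.36, adjusted p 0.0392) and without ANT 4 and 5 together (0.40, adjusted p 0.0168).

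Chst3, the chondroitin sulfotransferase (ENSMUSG00000057337.13, chr10:60181532-60219260, minus strand), had 0, 1, 1 and 3 counts in the ANT libraries, or 0, 0.0368, 0.036 and 0.103 CPM. In SAS 1, 2, 3 and 6 it had 1445, 2255, 1017 and 1939 counts, or 44.0, 79.1, 35.1 and 62.3 CPM. The lowest SAS library was 339 times the highest ANT library, the widest separation of the 7 genes, and within SAS the levels differed by 2.25 times. The means were 0.0441 ± 0.0431 and 55.1 ± 19.6 CPM, the pooled ratio 1238 (530 to 3810) and the difference of mean log2 CPM 8.95 ± 0.38, the third in size of all 12619 genes. SAS 2 was again the highest, and without it the SAS mean was 47.1 ± 13.9 CPM.

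Of 26 other genes of chondroitin sulfate synthesis, 22 were tested, 4 were called higher in SAS and 6 higher in ANT (45.5% against 37.4%), with a median log2 fold change of -0.01. Chsy1, a polymerase that extends the chain, was at 8.83, 8.16, 10.3 and 9.82 CPM in the ANT libraries and at 64.6, 67.8, 64.8 and 60.2 CPM in the SAS libraries. The clones were far apart and each was tight, and edgeR's log2 fold change was 2.79 (SE 0.11, adjusted p 6.73e-08). Among the sulfotransferases, Chst15, which sulfates chains already carrying sulfate at another position, rose from 15.6 ± 1.35 to 43.8 ± 5.48 CPM (1.49, SE 0.12, adjusted p 7.47e-06), and Chst11 from 0.292 ± 0.153 to 3.39 ± 0.714 CPM (3.52, SE 0.38, adjusted p 4.87e-05). Dsel, related to the epimerase that makes dermatan, rose from 4.56 ± 0.768 to 8.75 ± 0.439 CPM (0.94, adjusted p 0.00104).

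Other enzymes of this group were lower in SAS. Chst12, which like Chst11 sulfates position 4 of the amino sugar, fell from 17.1 ± 4.90 to 7.83 ± 0.960 CPM (-1.12, SE 0.21, adjusted p 0.00184), and Ust, which sulfates the uronic acid, from 12.8 ± 3.53 to 1.77 ± 0.689 CPM (-2.85, SE 0.30, adjusted p 4.52e-05). Csgalnact1 and Csgalnact2, which start the chain, had log2 fold changes of -2.54 (adjusted p 0.000506) and -0.86 (adjusted p 0.0013), and Pxylp1, a phosphatase of the linker, one of -1.79 (adjusted p 3.9e-06). Chst7, the other enzyme known for the sulfation that Chst3 performs, had 0 counts in all 8 libraries. The split of 4 and 6 was the same under all 3 other scalings tried.

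Bcat1, the cytosolic aminotransferase (ENSMUSG00000030268.17, chr6:144993835-145076184, minus strand), had 3, 1, 3 and 3 counts in the ANT libraries, or 0.103, 0.0368, 0.108 and 0.103 CPM. In SAS 1, 2, 3 and 6 it had 684, 614, 579 and 646 counts, or 20.8, 21.5, 20 and 20.8 CPM. The 4 SAS libraries were nearly equal, the highest being 1.08 times the lowest, in contrast to the other genes near silent in ANT. The means were 0.0879 ± 0.0342 and 20.8 ± 0.631 CPM, the pooled ratio 234.6 (127 to 490) and the difference of mean log2 CPM 7.09 ± 0.18. Leaving out any 1 SAS library kept the SAS mean between 20.5 and 21 CPM.

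Of the 29 other branched-chain amino acid genes in the table, 28 were tested, 4 were called higher in SAS and 9 higher in ANT (46.4% against 37.4%), with a median log2 fold change of -0.21. Bcat2, the mitochondrial aminotransferase that catalyses the same reaction, was at 73.9, 85.9, 69.5 and 65.2 CPM in the ANT libraries and at 46.3, 48.2, 46.6 and 52.6 CPM in the SAS libraries. It was thus lower in all SAS libraries, by -0.60 on the log2 scale (SE 0.11, edgeR adjusted p 0.00151). Per kilobase of exons Bcat2 was at 18.9 ± 2.29 in ANT and 12.4 ± 0.75 CPM in SAS, against 0.00943 and 2.23 for Bcat1, so it was the higher of the pair in both clones. Slc7a5, the light chain of the large neutral amino acid transporter, rose from 30.7 ± 9.82 to 79.2 ± 14.6 CPM (1.37, SE 0.22, adjusted p 0.000845), while its partner Slc3a2 was at 92.9 ± 13.7 and 118 ± 22.1 CPM and was not called (adjusted p 0.101).

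Genes called in the breakdown of the keto acids went both ways. Ppm1k, the phosphatase that activates the keto acid dehydrogenase, fell from 54.7 ± 7.30 to 23.2 ± 1.76 CPM (-1.24, SE 0.12, adjusted p 2.39e-05), and Ivd and Auh of leucine breakdown had log2 fold changes of -0.52 (adjusted p 0.00273) and -0.66 (adjusted p 0.00702). Hibadh, of valine breakdown, went up with Bcat1 (0.60, adjusted p 0.00103), as did the transporter Slc7a8 (1.59, adjusted p 0.0127). Hibch (0.49, adjusted p 0.0289) was not called without ANT 4, ANT 5, SAS 1 or SAS 6 (0.0664 to 0.0815). In the whole list, 5 genes were called higher in SAS and 7 higher in ANT with scaling by library size only, and 5 and 4 without ANT 1 and 3 together.

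Endod1, the endonuclease-domain gene (ENSMUSG00000037419.9, chr9:14353990-14381507, minus strand), was expressed in both clones. It had 70, 67, 69 and 53 counts in the ANT libraries, or 2.41, 2.46, 2.49 and 1.83 CPM, and 3260, 2756, 2206 and 2219 counts in the SAS libraries, or 99.3, 96.6, 76.1 and 71.3 CPM. The ANT levels were low but well above 0, ANT 5 was lower than the other 3, and the SAS libraries fell into a higher pair (SAS 1 and 2) and a lower pair (SAS 3 and 6). The means were 2.30 ± 0.315 and 85.8 ± 14.2 CPM, the pooled ratio 37.49 (33.1 to 42.6) and the difference of mean log2 CPM 5.18 ± 0.16.

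Of the 18 other nuclease and DNA-sensing genes in the table, 13 were tested, 2 were called higher in SAS and 3 higher in ANT. That is 38.5%, close to the background of 37.4%, and the balance of directions depended on scaling, with 4 higher in SAS and 3 higher in ANT under scaling by library size only and 1 and 3 under the upper quartile. Tmem173, the DNA-sensing adaptor STING, fell from 161 ± 30.1 to 79.0 ± 8.28 CPM (-1.03, SE 0.14, edgeR adjusted p 0.000284), the lysosomal nuclease Dnase2a from 10.7 ± 0.655 to 6.31 ± 0.602 CPM (-0.76, adjusted p 0.00116) and the nucleotide hydrolase Samhd1 from 501 ± 128 to 314 ± 22.5 CPM (-0.67, adjusted p 0.0107). Apex1, a base-excision repair nuclease, rose from 29.7 ± 5.28 to 54.7 ± 8.47 CPM (0.88, adjusted p 0.00133). Fen1 (0.45, adjusted p 0.0421) was not called without ANT 3, 4 or 5 or without SAS 1, 3 or 6 (0.0607 to 0.117), and Endog, a mitochondrial nuclease, was not called (-0.32, adjusted p 0.13).

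Swap70, the Rac-linked cytoskeletal protein (ENSMUSG00000031015.8, chr7:110221711-110283506, plus strand), was not silent in ANT. It had 529, 351, 401 and 429 counts in the ANT libraries, or 18.2, 12.9, 14.5 and 14.8 CPM, and 4345, 2951, 3212 and 3563 counts in the SAS libraries, or 132, 103, 111 and 114 CPM. The clones did not overlap and the spread within each was small, the lowest SAS library being 5.67 times the highest ANT library. The means were 15.1 ± 2.25 and 115 ± 12.3 CPM, the pooled ratio 7.652 (7.28 to 8.05) and the difference of mean log2 CPM 2.93 ± 0.13. In ANT it ranked above 28.3% of tested genes by level per exon length, and the other 6 genes ranked above 14.8% or fewer.

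Swap70 is also known from B cells, and the B cell marker sum was lower in SAS (135 to 227 CPM) than in ANT (675 to 706 CPM), the opposite direction. Ighm made up most of it (665 ± 21.4 CPM in ANT and 150 ± 27.1 CPM in SAS). Of 5 tested markers 2 were called higher in ANT and none higher in SAS, against 17.7% and 19.8% of all tested genes. Regulatory T cell markers moved with Swap70 between the clones, with the sums given above, and their part in its level was not tested.

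Of 28 other genes for exchange factors of Rac, Cdc42 and related small GTPases and for such GTPases, all 28 were tested, 4 were called higher in SAS and 8 higher in ANT (42.9% against 37.4%), with a median log2 fold change of -0.08; under scaling by library size only the split turned to 6 and 5. Def6, the nearest relative of Swap70, was at 148, 165, 214 and 200 CPM in the ANT libraries and 137, 182, 198 and 160 CPM in the SAS libraries. The clones overlapped and Def6 was not called (-0.10, SE 0.15, adjusted p 0.636). Vav2 rose from 12.9 ± 2.61 to 44.8 ± 6.00 CPM (1.79, SE 0.16, edgeR adjusted p 1.58e-05) and Tiam1 from 4.38 ± 0.542 to 20.8 ± 11.2 CPM (2.24, SE 0.34, adjusted p 0.000519), both Rac exchange factors. The exchange factors Plekhg2 (0.87, adjusted p 0.00227) and Arhgef2 (0.65, adjusted p 0.00455) were also higher in SAS. On the ANT side were the GTPase Rhoh (331 ± 31.0 to 146 ± 7.81 CPM, adjusted p 9.78e-06), the Rac exchange factor Dock2 (1030 ± 105 to 625 ± 53.0 CPM, adjusted p 0.000729), Arhgef6 (-0.58, adjusted p 0.00128) and Fgd3 (-0.55, adjusted p 0.00345).

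**Figure D3:**
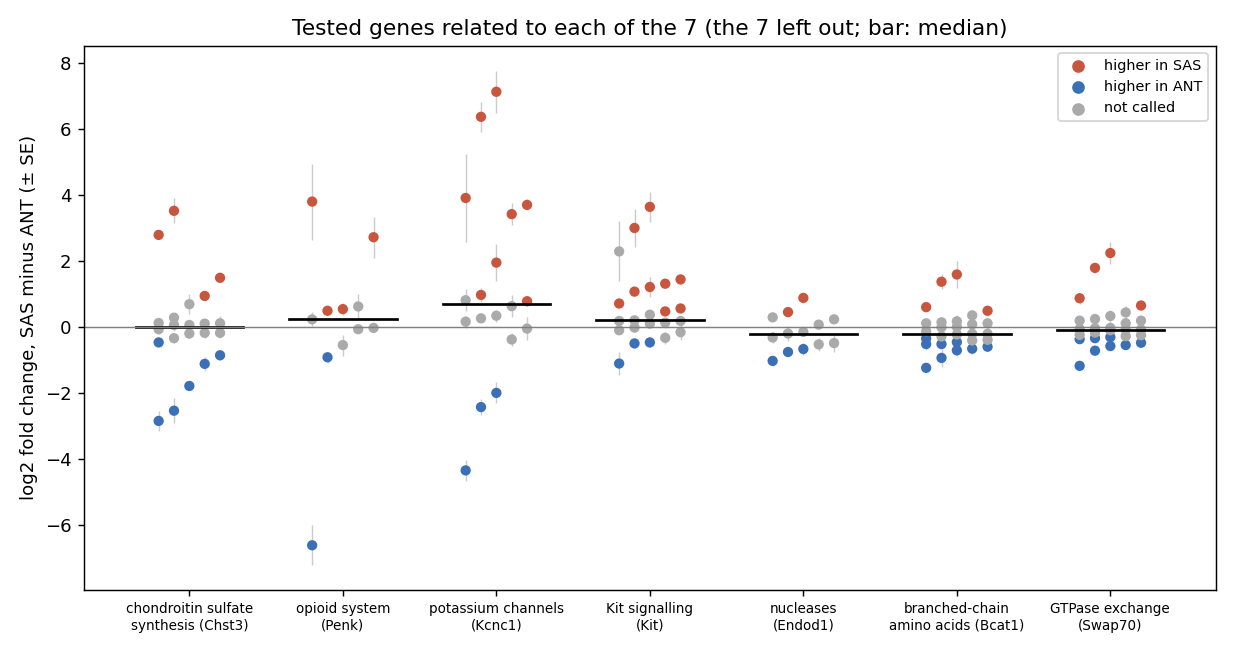
Log2 fold change, SAS minus ANT, of the tested genes related to each of the 7 genes, with its SE as a thin line; the 7 genes themselves are left out and bars are medians. Genes called in either direction occur in all 7 lists, with medians from -0.21 (branched-chain amino acids) to 0.71 (potassium channels), and Pcsk1 lies lowest at -6.62.

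In each of the 7 genes every SAS library was above every ANT library, which the choice of genes fixes and which held for 20.5% of the 12619 tested genes. How the genes varied among the SAS libraries is described next, as no spread entered the choice. For each gene the SD of log2 CPM over the 4 SAS libraries was ranked among tested genes whose SAS mean lay within 0.5 on that scale. Penk (SD 2.49) had a larger spread than 99.9% of such genes, Chst3 (0.52) than 99.3%, Kcnc1 (0.50) than 98.9% and Kit (0.60) than 97.8%. Endod1 (0.24) was above 87.1% and Swap70 (0.15) above 55.0%, and Bcat1 (0.04) was above 1.94%, so the genes ran from among the most to among the least variable at their levels.

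The libraries did not rank the genes in one order. SAS 2 was the highest for Bcat1, Chst3, Kcnc1 and Kit and the lowest for Swap70, SAS 1 was the highest for Endod1 and Swap70 and the lowest for Penk, and SAS 3 was the highest for Penk and the lowest for Bcat1, Chst3 and Kit. On the log2 scale, Penk in SAS 3 was 3.34 above the SAS mean and Kit in the same library was -0.90 from it. SAS 1 had the largest total count and SAS 2 the smallest of all 8 libraries. Within SAS, Swap70 ranked in the order of the totals, and Bcat1, Chst3, Kcnc1 and Kit were highest in the library with the smallest total. The part of depth in these levels was not tested.

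**Figure D4:**
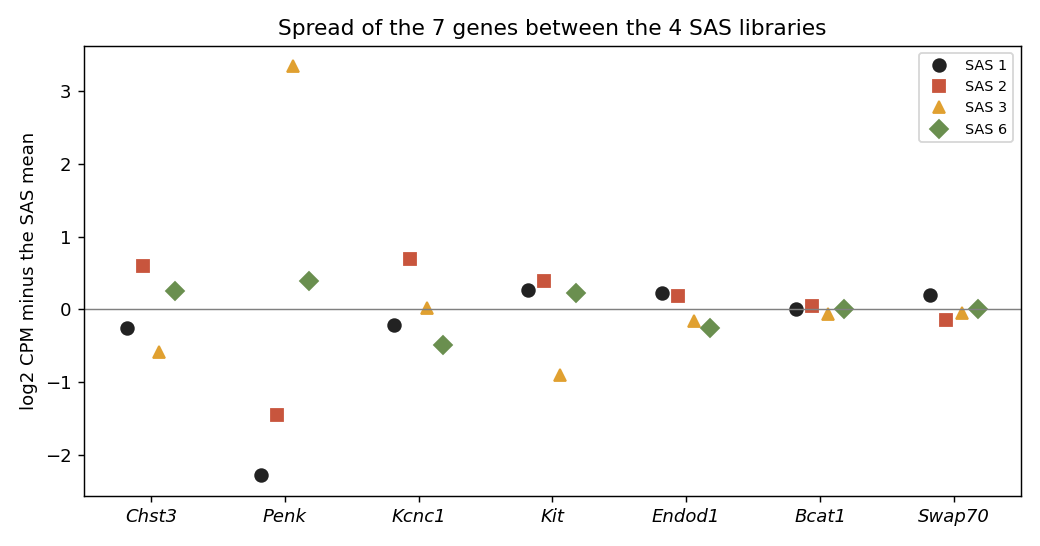
Log2 CPM of each of the 7 genes in each SAS library minus the mean of the 4 SAS libraries; each point is a library. Penk runs from -2.28 in SAS 1 to 3.34 in SAS 3, and Bcat1 from -0.06 to 0.05.

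Levels can be compared between genes only per exon length. In SAS, in CPM per kilobase of merged exons, the order was Penk (18.6 ± 29.6), Endod1 (18.5 ± 3.05), Swap70 (14.2 ± 1.52), Chst3 (8.48 ± 3.01), Kcnc1 (4.05 ± 1.53), Bcat1 (2.23 ± 0.0677) and Kit (1.97 ± 0.656). Penk had no settled place, since it ranged from 1.23 to 62.7, and the library ranges of Endod1 and Swap70, of Chst3 and Kcnc1, and of Bcat1 and Kit overlapped. Swap70 and Chst3 did not overlap, nor did Kcnc1 and Bcat1. In ANT, Swap70 was at 1.87 ± 0.279 and Endod1 at 0.495 ± 0.0679 CPM per kilobase, and the other 5 genes were at or below 0.032. With the length of the longest transcript in place of the merged exons, Swap70 came to 28.6 in SAS, Kit to 3.34 and Bcat1 to 2.65, which would put Swap70 first and Kit above Bcat1.

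The tested genes whose profiles over the 8 libraries were most like each of the 7 were found by the root mean square difference between log2 CPM profiles, each centred on its own mean. Most of any such likeness comes from the difference between clones, which these genes share by choice, so the values are a description. Swap70 had the closest matches, Rilpl2 (0.14), Alpk1 (0.15) and Gsto1 (0.16), followed by Endod1 with Cd24a (0.19), 4930431P03Rik (0.25) and Tmem121b (0.29). Bcat1 was nearest to Eomes (0.35), Syt6 (0.36) and Itga9 (0.37), Chst3 to Prr5l (0.33), Rgs16 (0.44) and Myo1e (0.69), Kit to Nrgn (0.43), Itgb8 (0.50) and Bcat1 itself (0.51), and Kcnc1 to Eomes (0.51), Lag3 (0.57) and Samd3 (0.58).

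Penk had no close match: its nearest genes were Dnah12 (1.18), Adam19 (1.33) and Tbx21 (1.36). Dnah12, an axonemal dynein heavy chain, was at 3.17, 3.30, 22.3 and 5.17 CPM in SAS 1, 2, 3 and 6 and at most 0.207 CPM in ANT, so it was also high in SAS 3, though by less than Penk. Among the 7 genes the nearest pair was Kit and Bcat1 (0.51), then Kcnc1 and Kit (0.72), and the farthest Chst3 and Swap70 (3.06). Nrgn, the nearest to Kit, was at 55.0 CPM in SAS 2 and at 27.1 to 27.8 CPM in the other SAS libraries.

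The genes lie on 6 chromosomes, with Kcnc1 and Swap70 both on chromosome 7 but far apart. The nearest tested protein-coding gene on each side gave 14 neighbours, of which edgeR's test called 6 higher in SAS and 1 higher in ANT, and 7 not called; over all tested genes 37.4% were called, 19.8% higher in SAS. Without ANT 1 and 3 together, 4 of the 14 were called. Bcat1 and Swap70 each had a neighbour that rose with it: Lrmp, 39.5 kb from Bcat1, was at 105, 101, 79.9 and 77.3 CPM in ANT and at 512, 509, 498 and 522 CPM in SAS (2.49, SE 0.13, adjusted p 3.54e-07). Wee1, a cell cycle kinase 78.4 kb from Swap70, was at 0.698 to 0.901 CPM in ANT and at 6.77 to 8.39 CPM in SAS (3.23, SE 0.18, adjusted p 8.93e-07). In both the clones were far apart, and as in Bcat1 the SAS libraries were close together.

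Sesn3, 20.9 kb from Endod1, rose by less (280 ± 41.5 to 508 ± 49.2 CPM, adjusted p 0.000461), and its neighbour on the other side, Cwc15, was not called (-0.18, adjusted p 0.269). Chst3 lay between Spock2, higher in SAS (2.07, adjusted p 0.0116), and Psap, higher in ANT (-0.54, adjusted p 0.0135). Spock2 was at 26.3 CPM in SAS 2 and at 4.43 to 8.28 CPM in the rest; its log2 fold change was 1.17 without SAS 2, still called, and the call was lost without ANT 1 and 3 together (adjusted p 0.187) or ANT 4 and 5 together (0.11). Neither neighbour of Kcnc1 was called: Sergef lies 4.45 kb away (-0.21, adjusted p 0.299), and Nomo1 (0.40, adjusted p 0.12) was called higher in SAS without ANT 5 (0.52, adjusted p 0.0478) and without ANT 4 and 5 together (0.79, adjusted p 0.000766). Of the neighbours of Penk, Impad1 was not called (adjusted p 0.736), nor was Gm11808 (-0.57, adjusted p 0.126), which was called higher in ANT without ANT 4 and 5 together (-0.92, adjusted p 0.0217). No tested gene starts within 500 kb of the start of Kit. Its neighbour Chic2 (0.53, adjusted p 0.0304) was not called without ANT 1, ANT 3, SAS 2 or SAS 3 (0.0696, 0.0703, 0.0652 and 0.0924), and Srd5a3 was not called (-0.04, adjusted p 0.81).

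On the far side of Bcat1, Sox5 (1.17, adjusted p 0.0321) was not called without ANT 3, 4 or 5 or without SAS 2 or 3 (0.0542 to 0.082), and Sbf2 beside Swap70 was not called (-0.20, adjusted p 0.396). Of all 46 tested genes that start within 500 kb of the 7 genes, 9 were called on the SAS side and 12 on the ANT side (19.8% and 17.7% over all tested genes), with a median log2 fold change of -0.14. The other annotated gene that overlaps one of the 7 is A830012C17Rik, on the opposite strand at Penk, and it had 0 counts in all libraries.

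**Figure D5:**
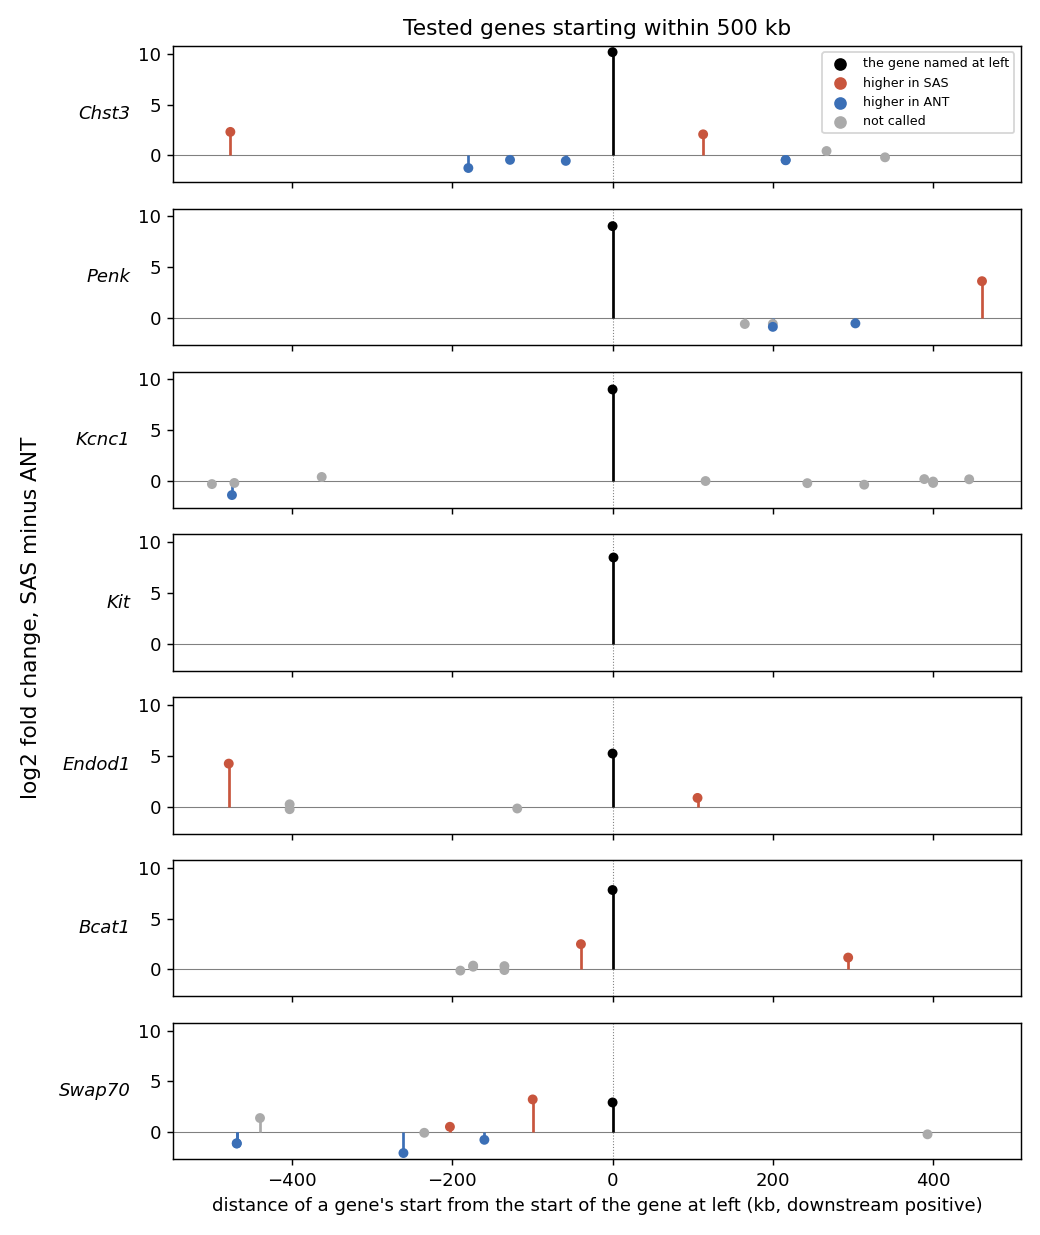
Fitted log2 fold change, SAS minus ANT, of the tested genes that start within 500 kb of each of the 7 genes, against the distance between start sites in kb. The black stem is the gene named at left, and among the 46 genes around the 7, the red points above 2 are Lrmp near Bcat1, Wee1 near Swap70, Gpr83 (4.23) near Endod1, Lyn (3.64) near Penk, and Cdh23 (2.31) and Spock2 (2.07) near Chst3.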

How the data were processed

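The authors deposited 1 table of raw counts, whole numbers per versioned Ensembl gene, for the 8 libraries. Per the labels' protocols, cells were sorted into TRI Reagent, followed by chloroform extraction, isopropanol precipitation and a strand-specific TruSeq mRNA library protocol from Illumina. Per the submitters' processing notes, STAR, featureCounts and the mm10 genome were used; their versions, the annotation and the strand and multi-mapping settings are not given in the sources used here, so counts of overlapping or near-identical genes are uncertain. Of 39056 IDs, 38872 matched GENCODE M21 (the same build) without the version and 184 did not, and symbols, coordinates and exon lengths come from it. Promoter windows are RefSeq's.

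Genes passing edgeR's default filter (12619) entered edgeR 4.0.16, run in R 4.3.3 (TMM scaling, robust quasi-likelihood test, no covariate, all 8 libraries, Benjamini-Hochberg adjusted p under 0.05), checked on simulated counts. The SE of a log2 fold change is its size over the square root of F. The 7 genes, the lists and the tests were chosen with earlier results of these data known. The 7 genes received no test and no p. Genes named are the 7, the 4 called genes of each list with the smallest p in each direction, 16 fixed genes, the neighbours, the 3 most similar genes and the 3 most abundant markers of each list; others were named after their values were seen. Of the marker lists not described in the report, the myeloid list summed to 4.70 to 6.79 CPM in ANT and 4.18 to 9.43 CPM in SAS, the CD8 T cell list to 14.1 to 66.8 and 1.99 to 4.49, the erythroid and platelet list to 0.828 to 12.9 and 1.28 to 5.85, and the stromal and endothelial list to 228 to 327 and 241 to 281. Alternatives were other scalings and filters, DESeq2 1.42.0, limma-voom (limma 3.58.1), a replicate block and leaving out libraries. A few genes of these lists are not reported here.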

Additional observations from a re-analysis of the deposited data

Results flagged for a closer look

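A value was listed when the highest or lowest of the 4 libraries of a clone stood so far from the nearest other that the gap, as a share of the clone's whole range, exceeded Dixon's 95% critical value. This happened in 30 of 260 groups (1 gene in 1 clone). Chance alone gives about 1 in 20 for normally distributed values, which CPM of low counts are not. A library with a count, beside others with none, is listed whatever its level. Of the 14 groups of the 7 genes, 3 were listed: Penk at 102 CPM in SAS 3 (2.01 to 13.2 CPM in the other SAS libraries), Endod1 at 1.83 CPM in ANT 5 (2.41 to 2.49) and Bcat1 at 0.0368 CPM in ANT 3 (0.103 to 0.108), the last a difference between 1 count and 3.

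SAS 2 accounted for 13 of the 27 listed values of other genes. It was high for Snap25 (29.6 CPM), Syt1 (22.2), Map2 (64.6), Cpe (22.6), Nrgn (55.0), Kitl (2.38), Hlf (2.45), Oprd1 (0.245), Hbb-bs (3.16), Auh (34.7), Ivd (58.5) and Dpp3 (108), and low for Jak2 (413). Snap25, Syt1 and Map2 are markers of the neuronal list, and the other genes were not measured for a link with it.

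The remaining 14 values were spread over 6 libraries. In SAS 1, Col1a1 (0.914 CPM), Gsto1 (32.9) and Alpk1 (9.90) were high and Chst12 (6.40) was low. In SAS 3, Dnah12 (22.3), Ms4a2 (0.0345, 1 count) and Pik3r1 (204) were high, Dnah12 being the gene most like Penk. In the ANT libraries, Stat5a (77.1 in ANT 1), Kcna2 (38.7 in ANT 4) and Lyn (0.0735 in ANT 3) were low. Cpd (0.345), Kcnc4 (0.0345, 1 count), Prr5l (0.0345, 1 count) and Spock2 (3.48) were high in ANT 5.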

How the results depend on the processing

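Of 162 values of counts of called genes under the alternatives, 160 stayed within 1.5 times the reported count. The exceptions were the potassium channels without a filter on low counts, where 17 were called instead of 11 because 76 genes were tested instead of 18, and the 14 neighbours without ANT 1 and 3 together, where 4 were called instead of 7, with fewer libraries. Leaving out 1 library at a time gave 3964 to 4700 called genes in all (4725 reported). By list, this gave 10 to 11 for the genes related to Chst3, 4 to 6 for Penk, 10 to 14 for Kcnc1, 10 to 13 for Kit, 4 to 6 for Endod1, 10 to 14 for Bcat1, 9 to 13 for Swap70 and 5 to 7 for the neighbours.

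The clones share only the replicate numbers 1 and 3, and nothing in the labels says that these pair the samples. With the replicate number as a block, 5798 genes were called, 11 related to Chst3, 8 to Penk, 13 to Kcnc1, 12 to Kit, 5 to Endod1, 18 to Bcat1 and 13 to Swap70, and 8 neighbours. The block also gave calls for Nomo1 (0.75, adjusted p 6.5e-07), Gm11808 (-0.94, 0.0115) and Kcnn4 (0.39, 0.0171), and ended that of Samhd1 (-0.32, 0.0564). DESeq2 called 5173 genes and limma-voom 4682.

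The 7 genes were picked by this same contrast, so the unchanged sign of their differences under every alternative is no check on them. The difference of mean log2 CPM ran from 2.85 to 3.03 for Swap70 and from 5.06 to 5.27 for Endod1. It ran from 5.40 to 10.26 for Penk and from 8.63 to 10.81 for Chst3. The upper values for Penk and Chst3 come from the fit with the block, which gives a fitted fold change in place of a difference of means.

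Among single genes, signs turned in 29 cases, all in genes not called. With scaling by library size only these were Lck (0.01), Cd4 (0.05), Srd5a3 (0.06), Impad1 (0.04) and Trbc2 (0.00). With the block they were Def6 (0.08), Impad1 (0.18), Hbb-bs (0.38), Hba-a1 (1.5) and Hbb-bt (1.55), and with limma-voom Hbb-bt (0.05). Without ANT 4 and 5 together they were Def6 (0.09), Impad1 (0.05), Hbb-bs (1.09), Hba-a1 (2.00) and Hbb-bt (2.06), and without ANT 1 and 3 together Pecam1 (0.08), Trbc2 (0.11) and Igkc (-0.37). Leaving out 1 library at a time gave ranges across 0 for Hdc (-0.31 to 0.10, turned without ANT 1), Srd5a3 (-0.10 to 0.00, SAS 1), Impad1 (-0.15 to 0.01, ANT 5), Hba-a1 (-1.58 to 0.30, ANT 5), Hbb-bt (-0.99 to 0.45, ANT 5), Trbc2 (-0.23 to 0.06, ANT 1 or SAS 3) and Igkc (-0.53 to 0.63, ANT 1, ANT 3 or SAS 2). The cause was not tested. Depth limits the ANT values of Chst3, Penk, Kcnc1, Kit and Bcat1, each of which rests on 10 counts or fewer over 4 libraries.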
